A study of Danio rerio with 6 samples.

Results

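The sarcomere is the contractile unit of heart muscle, and 8 zebrafish genes that encode its parts are described here by the histone marks at their promoters. They were taken by symbol from the deposited peak lists: vmhcl, mybpc3, cmlc1 and myl7 of the thick filament, and tpm4a, tnnc1a, tnnt2a and tnni1b of the thin filament. They are 8 of the 10067 genes that the lists name. The marks are acetylation (H3K9ac) and trimethylation (H3K9me3) of lysine 9 of histone H3, each mapped by ChIP-seq, in which DNA bound to a marked histone is pulled down with an antibody and read. The material was heart tissue of Danio rerio aged 1 to 1.5 years, with 3 groups: uncut hearts, and hearts 6 days (6 dpa) and 9 days (9 dpa) after the tip of the ventricle was cut off. Each mark and time had 1 library, so there were 6 libraries, no replicate and no p-value between times. The strain, the sex, the number of hearts in a library and the region of the heart that was collected are not given in the sources used here.

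In the thick filament, myosin heavy chains form the motor, a pair of light chains sits on each neck of the motor, and myosin-binding protein C ties the filament into its lattice. In the thin filament, actin carries tropomyosin and the troponin complex, whose C, T and I subunits bind calcium, hold the complex to tropomyosin and block contraction at rest. H3K9ac is typical of promoters of active genes, and H3K9me3 of silent chromatin. After ventricular amputation in zebrafish, heart muscle cells near the wound are known to take down part of their sarcomeres and divide.

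The value followed here is the number of tags, which are the reads inside the peaks that the authors called, summed over the peaks that reach within 2 kb of a transcription start site (TSS) on either side. There were 16264 H3K9ac peaks in the uncut list, 17525 in the 6 dpa list and 17223 in the 9 dpa list, and between 4488 and 6216 H3K9me3 peaks. Read totals are not given in the sources used here, so the background read density of each library, recovered from the peak scores, stood in for depth. For H3K9ac it was 14.63 reads per kb in uncut, 11.25 in 6 dpa and 15.01 in 9 dpa hearts, and for H3K9me3 it was 4.10, 10.83 and 9.24. In bulk tissue, fewer heart muscle cells and less of the mark in each of them cannot be told apart. Of 12 genes named for heart muscle 8 were in the lists, all of them regulators of heart muscle identity. An H3K9ac promoter peak was listed for 8, 7 and 8 of them in uncut, 6 dpa and 9 dpa hearts. Of 16 genes named for skeletal muscle, only cav3 was in the lists, with 34 tags in uncut, 44 in 6 dpa and no peak in 9 dpa hearts. Whether the tissue held muscle from outside the heart was not tested.

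H3K9ac marked the promoters of 7 of the 8 sarcomere genes in uncut hearts, those of 5 genes at 6 dpa, and all 8 at 9 dpa. Over all genes in the lists the shares with such a peak were 82.8%, 86.9% and 85.4% at the same times, so a peak at a promoter is the usual state there. The genes' promoter tags summed to 821 in uncut, 365 in 6 dpa and 822 in 9 dpa hearts, over 14316, 7992 and 15264 bp of called peak. The missing peaks were those of tnnc1a and tnnt2a at 6 dpa and of tnni1b at both earlier times. In tags, every sarcomere gene that had a peak in uncut hearts had fewer at 6 dpa or no peak there. All 23 of these promoter peaks were of low enrichment: the authors' fold enrichment lay between 3.67 and 5.28 in uncut hearts, where the median promoter peak of that list had 6.48. It lay between 3.86 and 5.89 at 6 dpa, against a list median of 8.35, and between 3.47 and 5.99 at 9 dpa, against 6.97. No promoter peak of these genes was shared with another gene.

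**Figure D1:**
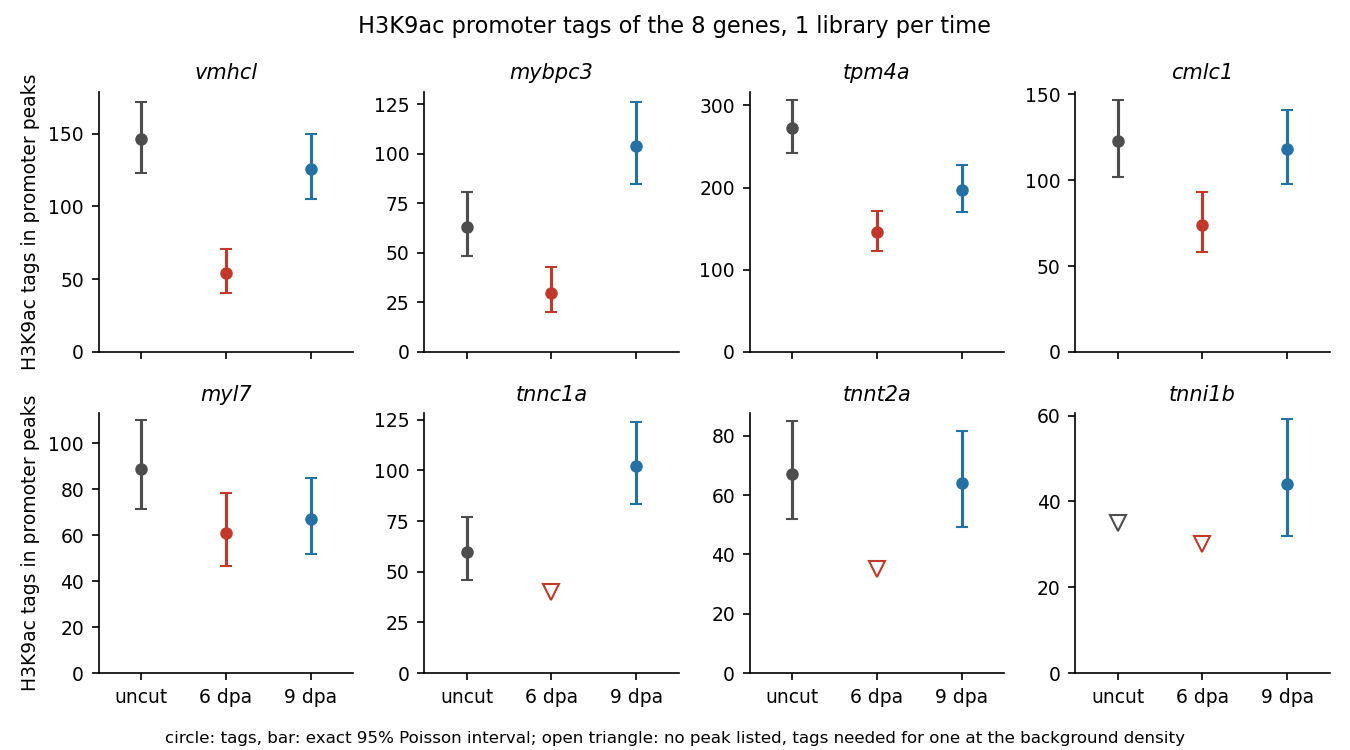
Tags in H3K9ac promoter peaks (y axis, from 0, own scale for each gene) at each time (x axis) for the 8 genes, with exact 95% Poisson intervals. An open triangle marks a time with no peak. It stands at the tags that a peak as wide as the wider of the gene's other peaks would have needed at the background density. Narrower peaks could be listed with fewer tags. The 6 dpa point is the lowest of the 3 times in the first 5 genes, and mybpc3 and tnnc1a are highest at 9 dpa.

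Among thick filament genes, vmhcl had the lowest value at 6 dpa relative to uncut hearts. This gene, a ventricular myosin heavy chain gene, is listed on the minus strand of chromosome 2 from 24618672 to 24633990 (danRer10, as are all coordinates here), and its reference symbol is myh7l. Its promoter peak held 146 tags in uncut, 54 in 6 dpa and 126 in 9 dpa hearts, over widths of 2347, 1521 and 2414 bp. The peak spanned the first exon and ran into the first part of the gene at all times. The 6 dpa library is the low one, and its exact Poisson interval of 40.6 to 70.5 tags does not meet the 123 to 172 of the uncut library or the 105 to 150 of the 9 dpa library. Relative to the median gene, the log2 change was -1.55 at 6 dpa against uncut, with a standard error of 0.23 from counting alone. Only 0.0982% of the 8150 genes with a peak at both times had a lower value. Part of the difference was width: in tags per kb, vmhcl had 35.5 at 6 dpa and 62.2 in uncut hearts, a log2 change of -0.88 (SE 0.23).

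A further quantity was read from the scores. Each score and tag count fix the read density that the peak was scored against, and for most peaks this density falls on steps of 0.1 reads per kb, which is what whole reads in a window of 10 kb give. In none of the 56336 peaks on such a step did the peak itself hold more tags than the 10 kb total, and in none of the 4727 with another peak inside the window did the summed tags exceed it. The total is therefore read here as the library's own reads in the 10 kb around a peak, including the peak. For peaks on a step, this total does not depend on how wide the peak was called. For each gene, the window of its promoter peak with most tags was taken at each time. Around the vmhcl promoter the total was 330 reads in uncut, 149 in 6 dpa and 272 in 9 dpa hearts. Relative to the median gene that is a log2 change of -0.97 (SE 0.14) at 6 dpa against uncut, and 0.0123% of 8150 genes had a lower one, which is 1 gene. The reads outside the peak also differed: they stood at 1.00 times the library background at 6 dpa, against 1.64 times in uncut hearts and 1.28 times at 9 dpa.

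Cardiac myosin-binding protein C is encoded by mybpc3, on the plus strand of chromosome 7 from 31567170 to 31627968. Its promoter held 63 tags in uncut, 30 in 6 dpa and 104 in 9 dpa hearts, over 1407, 850 and 2100 bp. The 6 dpa peak differed in place as well as in size. It began 939 bp past the TSS, inside an intron, whereas the uncut and 9 dpa peaks covered the TSS, and its score of 50.76 lay just above the lowest score of the list, which was 50. The log2 change was -1.18 (SE 0.32) at 6 dpa against uncut and 0.50 (SE 0.23) at 9 dpa against uncut, which lie on opposite sides of the median gene. In tags per kb the values were -0.42 (SE 0.32) and 0.00 (SE 0.23), both within counting error of 0. A promoter 7.5 kb upstream of mybpc3, that of the gene listed as cars, held 120 tags in uncut, 134 in 6 dpa and 164 in 9 dpa hearts. Within the same libraries the ratio of the mybpc3 tags to those of cars was 0.22 at 6 dpa and 0.52 in uncut hearts, a log2 difference of -1.23 (95% counting interval -1.95 to -0.51). At 9 dpa the ratio was 0.63, against 0.52 in uncut hearts, a log2 difference of 0.27 whose interval of -0.29 to 0.84 includes 0.

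The light chain genes follow. The gene cmlc1, which encodes a cardiac myosin light chain, spans only 797 bases on the minus strand of chromosome 5 (63486420 to 63487216), so its promoter peak covers the whole listed transcript. It held 123 tags in uncut, 74 in 6 dpa and 118 in 9 dpa hearts, over 1768, 1488 and 2097 bp, and the 6 dpa peak began 3 bp past the TSS. The log2 change was -0.85 (SE 0.21) at 6 dpa against uncut and -0.28 (SE 0.19) at 9 dpa against uncut. The gene myl7, whose product is the regulatory light chain and whose promoter is a standard driver of transgenes in zebrafish heart muscle, lies on the minus strand of chromosome 8 from 40417521 to 40425350. Its tags were 89 in uncut, 61 in 6 dpa and 67 in 9 dpa hearts, and its width hardly moved, at 1452, 1374 and 1345 bp. Of the genes with a peak at all times it was the only one whose 9 dpa tags, relative to the median gene, lay within counting error of those at 6 dpa: the log2 changes were -0.66 (SE 0.24) and -0.63 (SE 0.23) against uncut, and 0.03 (SE 0.26) at 9 dpa against 6 dpa. An H3K9ac site lay 13.6 kb from the myl7 TSS, past the end of the gene and at no listed promoter. It held 205 tags in uncut, 256 in 6 dpa and 233 in 9 dpa hearts, not scaled between libraries. The median gene also held more tags than in uncut hearts, by a log2 of 0.11 at 6 dpa and 0.22 at 9 dpa. The ratio of promoter to site was 0.24 at 6 dpa against 0.43 in uncut hearts, a log2 difference of -0.87 (-1.41 to -0.33). At 9 dpa it was 0.29 against 0.43, a log2 difference of -0.59 (-1.13 to -0.06).

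In the thin filament, tpm4a, a tropomyosin gene, has 2 listed transcripts on the minus strand of chromosome 22, which start at 15576490 and 15567252 and end at 15555194 and 15552326. Its promoter peaks together held 273 tags in uncut, 146 in 6 dpa and 197 in 9 dpa hearts, the most of the 8 genes at each time, summed over 2 peaks. The log2 change of the sum was -1.02 (SE 0.15) at 6 dpa against uncut and -0.69 (SE 0.13) at 9 dpa against uncut. The upstream promoter held 116 tags in uncut, 71 in 6 dpa and 107 in 9 dpa hearts, and the downstream one 157, 75 and 90. In tags, the promoters thus parted at 9 dpa: the upstream one was at -0.33 (SE 0.19) against uncut and the downstream one at -1.02 (SE 0.19). In tags per kb they did not, at -0.12 and 0.0. In the called peaks of the downstream promoter the difference lay in width, not in tags per kb. Its peak was 1380 bp wide at 6 dpa and 1531 bp at 9 dpa, against 2952 bp in uncut hearts, while it held 54.3 and 58.8 tags per kb against 53.2. In uncut hearts that peak ran to 2636 bp past its TSS, at 6 dpa to 1011 bp and at 9 dpa to 1357 bp. The density that its peak was scored against also differed, at 36.1 reads per kb in uncut, 25.1 in 6 dpa and 32.0 in 9 dpa hearts. These were 2.47, 2.23 and 2.13 times the library background. At 6 dpa against uncut this was a log2 change of -0.35 (SE 0.12) relative to the median gene. The uncut density is off a step, so it could not be read as whole reads in 10 kb. A further H3K9ac peak of 90 tags, 5.9 kb upstream of the first TSS, was listed at 9 dpa only.

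**Figure D2:**
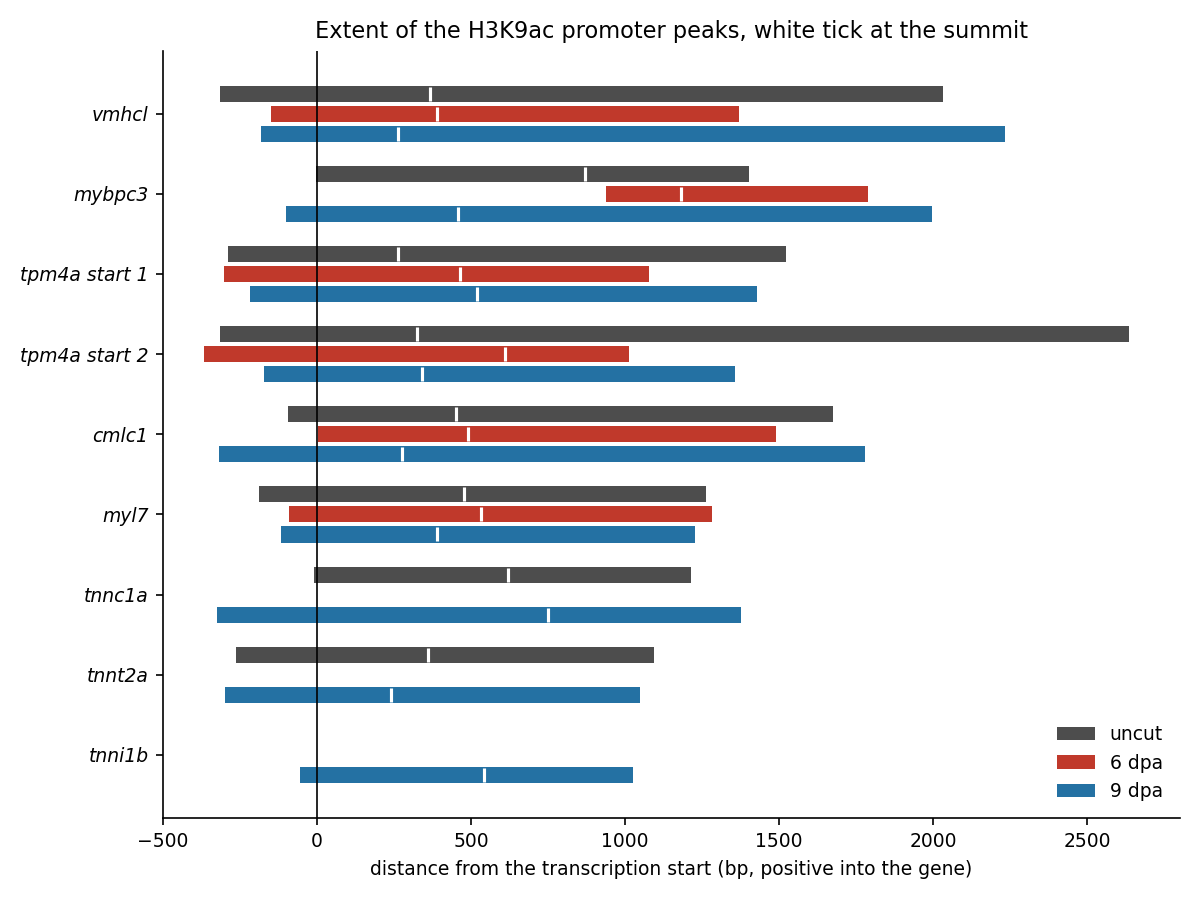
Horizontal bars give the extent of each H3K9ac promoter peak relative to its TSS (x axis in bp, positive into the gene), with the uncut, 6 dpa and 9 dpa libraries from top to bottom for each gene, and a white tick at the authors' summit. The 6 dpa bar of mybpc3 starts 939 bp past the TSS, the uncut bar of the downstream tpm4a start (start 2) is the longest, at 2952 bp, and no bar stands at 6 dpa for tnnc1a, tnnt2a and tnni1b.

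The 3 troponin genes were the ones with missing peaks. Troponin C of the heart is encoded by tnnc1a on the plus strand of chromosome 23, with its TSS at 4955130, and its promoter held 60 tags in uncut, no peak in 6 dpa and 102 tags in 9 dpa hearts. Cardiac troponin T is encoded by tnnt2a, the gene of the silent heart mutant, on the minus strand of the same chromosome from 5719259 to 5751073, with 67 tags in uncut, no peak in 6 dpa and 64 tags in 9 dpa hearts. The gene tnni1b, for a troponin I, lies on the minus strand of chromosome 6 from 54797121 to 54816248 and had a peak at 9 dpa alone, of 44 tags. A gap in a list is not a zero. At the background density of the 6 dpa library, a peak as wide as in uncut hearts would have needed at least 32 tags at tnnc1a and 35 at tnnt2a to be listed. For a peak of the tnni1b width at 9 dpa, at least 30 tags would have been needed at 6 dpa and 35 in uncut hearts. For peaks of these widths, these numbers are lower bounds. Narrower peaks could be listed with fewer tags, such as a 6 dpa peak of 23 tags over 755 bp in the listed span of tnnc1a. The promoter peaks of the sarcomere genes listed at 6 dpa were scored against local densities of 14.8 to 25.1 reads per kb, above the background of 11.25. Where both times have a peak, the log2 change at 9 dpa against uncut was 0.55 (SE 0.23) for tnnc1a and -0.28 (SE 0.25) for tnnt2a, and per kb it was 0.14 (SE 0.23) and -0.20 (SE 0.25). These figures put tnnc1a above and tnnt2a within counting error of the median gene in tags, and both within it per kb.

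Loss of a peak at 6 dpa was uncommon among all genes but less so among weak ones. Of all 10067 genes, 1.88% had an H3K9ac promoter peak in uncut hearts and none at 6 dpa, and 2 of the 8 sarcomere genes did. Of the 1118 genes with at most 67 tags in uncut hearts, the range that tnnc1a and tnnt2a belong to, 11.2% had none at 6 dpa, and 6.71% had none at 6 dpa and one again at 9 dpa. The gain of tnni1b at 9 dpa against uncut is of a kind seen in 4.64% of genes, and at 9 dpa against 6 dpa, where 3 of the 8 gained a peak, the share of all genes was 2.69%. Tags at tnni1b were few: only 2.43% of genes with a promoter peak at 9 dpa had fewer.

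The comparison with all genes at 6 dpa was possible for 5 of the 8 genes. Of the 5 with a peak at both times, 5 were lower by 1.5-fold or more at 6 dpa than in uncut hearts, against 7.33% of the 8150 genes compared. Among the 6911 genes with 63 to 273 tags in uncut hearts, the range of these 5, the share was 7.26%. The members' median was -1.02, with a range of -1.55 to -0.66, where the middle of all genes (quartiles) lay between -0.24 and 0.21. Per kb of called width, 1 of the 5 passed 1.5-fold, against 2.8% of all genes, and 3 of the 5 were lower beyond counting error, against 9.13%. In the reads of the 10 kb window, 1 of the 5 passed 1.5-fold, against 0.822% of all genes, while all 5 were lower beyond counting error, against 11.6%. These window values were -0.97 for vmhcl, -0.45 for mybpc3, -0.38 for cmlc1, -0.35 for tpm4a and -0.33 for myl7. Of the 23 promoter peaks of these genes 19 lie on a step. Those of mybpc3 and tpm4a in uncut hearts and of myl7 at 6 dpa do not, so the window values of these 3 genes at 6 dpa rest on a density that could not be read as whole reads, and only those of vmhcl and cmlc1 rest on whole reads at both times. The size of the change thus differed with the measure, while its sign relative to the median gene was the same in all 5 genes.

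**Figure D3:**
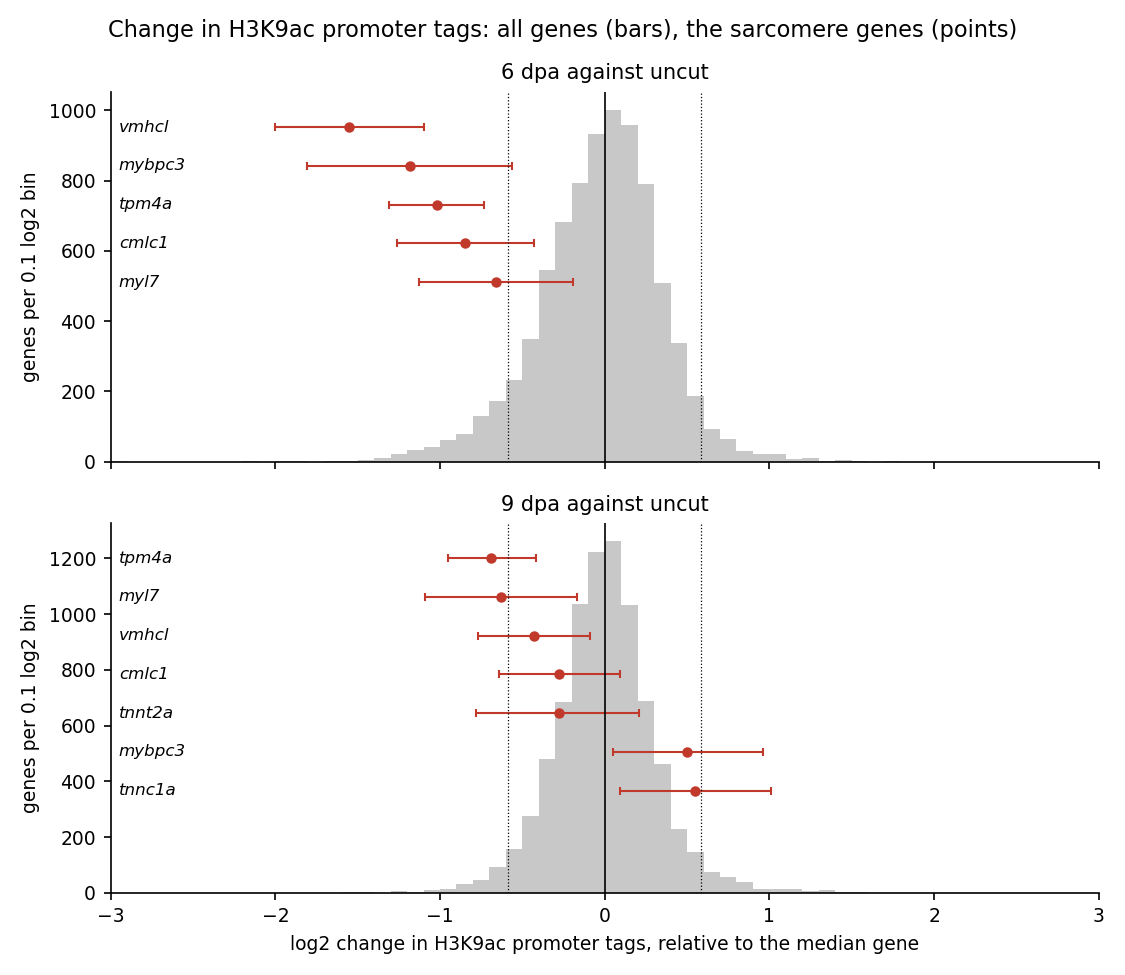
Grey bars count all genes per 0.1 of log2 change in H3K9ac promoter tags relative to the median gene (x axis), at 6 dpa against uncut in the upper panel and 9 dpa against uncut in the lower one. Red points are the sarcomere genes with 95% counting intervals at arbitrary height, and dotted lines mark 1.5-fold. The 5 points in the upper panel lie between -1.55 and -0.66, left of the bulk of genes, and the 7 in the lower panel lie on both sides of 0, from -0.69 to 0.55.

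The median gene itself is a choice of scale. Scaled to the background density of each library in place of the median gene, all values at 6 dpa against uncut are higher. The middle of all genes then lay between 0.25 and 0.70 in tags, 0.25 and 0.62 in tags per kb, and 0.05 and 0.35 in 10 kb reads. On that scale the median of the 5 genes was -0.52 in tags, -0.09 in tags per kb and -0.18 in 10 kb reads, and the per kb values of mybpc3 (0.04) and tpm4a (0.26) were above 0. Lower beyond counting error were 3 of the 5 in tags, against 1.71% of all genes. Per kb it was 0 of the 5, against 0.258%, and in 10 kb reads 1 of the 5, against 2.1%. The position of the genes among all genes does not depend on this scale.

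At 9 dpa against uncut, the 7 genes with a peak at both times no longer stood together. Of these, 2 were lower by 1.5-fold or more, tpm4a and myl7, against 2.8% of 8132 genes, and none was higher by as much, against 3.14%. Their median was -0.28. Below the median gene by more than counting error were 3 of the 7, tpm4a (-0.69), myl7 (-0.63) and vmhcl (-0.43), against 9.97% of all genes. Above it were 2, mybpc3 (0.50) and tnnc1a (0.55), against 9.89%. In 10 kb reads the uncut values of tpm4a and mybpc3 are again off a step. Lower beyond counting error were 4 of the 7, against 6.14% of all genes: tpm4a (-0.42, SE 0.11), vmhcl (-0.38, SE 0.12), cmlc1 (-0.31, SE 0.13) and myl7 (-0.30, SE 0.14). The tpm4a value sets its downstream promoter in uncut hearts beside its upstream one at 9 dpa, since these held the most tags. Around the downstream promoter the density was 36.1 reads per kb in uncut and 32.0 in 9 dpa hearts. Around the upstream one it was 33.8 and 28.8. Within counting error of 0 were mybpc3 (0.02, SE 0.13), tnnt2a (-0.10, SE 0.14) and tnnc1a (0.15, SE 0.14). The higher tags of mybpc3 and tnnc1a at 9 dpa were thus within counting error of the median gene in tags per kb and in 10 kb reads.

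At 9 dpa against 6 dpa, 2 of the 5 genes with a peak at both times were higher by 1.5-fold or more, against 5.72% of 8328 genes: mybpc3 at 1.69 (SE 0.30) and vmhcl at 1.12 (SE 0.23). None was lower by as much, against 1.96%. The others were cmlc1 at 0.57 (SE 0.21), tpm4a at 0.33 (SE 0.16) and myl7 at 0.03 (SE 0.26). Per kb of called width none of the 5 passed 1.5-fold, against 1.5% of all genes higher and 1.15% lower. In that measure vmhcl was at 0.48 (SE 0.23), and mybpc3 at 0.41 (SE 0.30) was within counting error of 0. In 10 kb reads the heavy chain gene vmhcl (0.60, SE 0.15) and mybpc3 (0.48, SE 0.15) were the ones beyond counting error, against 8.69% of all genes. The values of cmlc1, tpm4a and myl7 lay between -0.07 and 0.08. That of tpm4a sets its downstream promoter at 6 dpa beside its upstream one at 9 dpa. Around the downstream promoter the density was 25.1 reads per kb at 6 dpa and 32.0 at 9 dpa, and around the upstream one 20.8 and 28.8. These 3 comparisons share their libraries in pairs, so a high or low value in 1 library enters 2 of them.

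**Figure D4:**
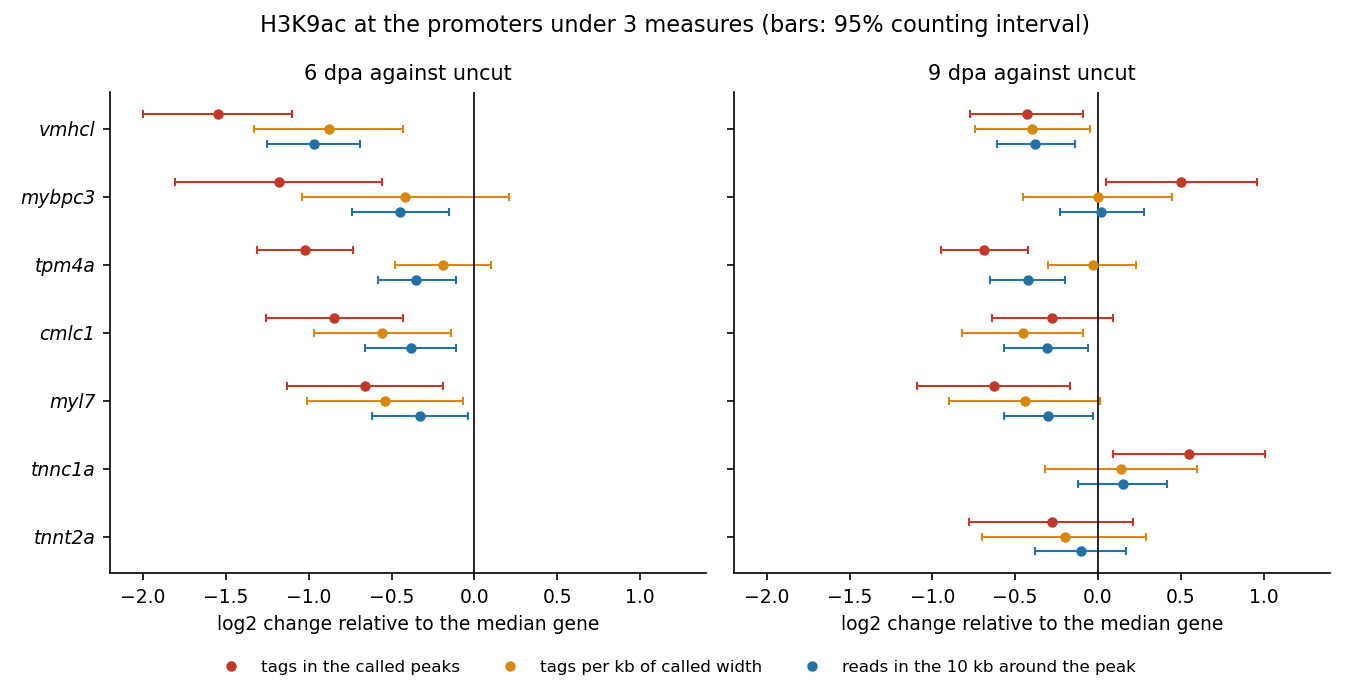
Log2 change relative to the median gene (x axis) for the genes with a peak at both times (rows), at 6 dpa against uncut on the left and 9 dpa against uncut on the right, in tags of the called peaks, tags per kb of called width and reads of the 10 kb window, with 95% counting intervals. On the left all points lie below 0 and those in tags lie farthest out. On the right mybpc3 is at 0.50 in tags and at 0.00 and 0.02 in the other measures. The window point of tpm4a on the right compares its downstream promoter in uncut hearts with its upstream one at 9 dpa.

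The genes can also be ordered by the density of H3K9ac tags per kb of called peak. In uncut hearts the order was cmlc1 (69.6 tags per kb), vmhcl (62.2), myl7 (61.3), tpm4a (57.3), tnnt2a (49.4), tnnc1a (49.1) and mybpc3 (44.8). At 6 dpa it was tpm4a (52.9), cmlc1 (49.7), myl7 (44.4), vmhcl (35.5) and mybpc3 (35.3), and at 9 dpa it ran from tpm4a (62.0) and tnnc1a (59.9) down to tnni1b (40.7). In each of these orders the exact Poisson intervals of neighbours overlap, while those of the ends in uncut hearts, cmlc1 (57.8 to 83) and mybpc3 (34.4 to 57.3), do not. The interval of vmhcl was 26.7 to 46.3 tags per kb at 6 dpa and 52.5 to 73.2 in uncut hearts, which do not overlap. These intervals are on tags that are not scaled between libraries. Scaled to background density, its per kb log2 change at 6 dpa against uncut was -0.43. The counting interval of that value, -0.88 to 0.02, includes 0. The highest value among them, that of cmlc1 in uncut hearts, lay below the median of all genes, since 45.9% of genes had a lower one, and the lowest, that of tnni1b at 9 dpa, had 2.36% of genes below it.

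H3K9me3 was listed at none of the 8 promoters at any time. Over all genes the shares with an H3K9me3 promoter peak were 1.97% in uncut, 4.6% in 6 dpa and 1.83% in 9 dpa hearts, so that among 8 genes none is the usual count. Within the gene bodies and the 20 kb on either side, 6 H3K9me3 sites were listed, 4 of them at 1 time only. Upstream of tnni1b, 8.5 kb from its TSS, was the 1 site with H3K9me3 at all times, with 29 tags in uncut, 33 in 6 dpa and 61 in 9 dpa hearts. These tags are not scaled, and the background of the H3K9me3 libraries was 4.1, 10.83 and 9.24 reads per kb at these times. The authors' fold enrichment at the site was 14.06, 7.12 and 12.33. The median peak of these H3K9me3 lists had 9.1, 6.27 and 6.72. H3K9ac was listed at the same place at all times, with 54, 46 and 55 tags. Upstream of tnnt2a, 19.6 kb from its TSS, an H3K9me3 peak of 30 tags was listed at 6 dpa alone. The remaining 4 sites lay in or near the listed span of tnnc1a.

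That span needs care. The lists place the end of tnnc1a at 5566736, 612 kb from its start, where the median transcript spans 14.7 kb and only 20 of 10299 are as long. Inside it lie 3 other listed genes, taz, kcna2b and etv7, so peaks in the span cannot be assigned to tnnc1a by place alone, and whether the span is an artefact of the annotation was not tested. All 8 H3K9ac sites counted in gene bodies fall in this span. The first with a peak at all times, 34.5 kb from the start, is the promoter of taz, with 80 tags in uncut, 121 in 6 dpa and 143 in 9 dpa hearts. The tnnc1a promoter has no peak at the middle time, and its ratio to taz was 0.71 at 9 dpa against 0.75 in uncut hearts, a log2 difference of -0.07 (-0.68 to 0.53). The largest site, 554.0 kb from the start, held 225 tags in uncut, 493 in 6 dpa and 458 in 9 dpa hearts, or 94.4, 78.6 and 96.2 per kb. A site 435.7 kb from the start carried both marks in uncut hearts and at 9 dpa and neither at 6 dpa, with 40 and 55 H3K9ac tags and 14 and 29 H3K9me3 tags. The H3K9me3 tags are not scaled, and the fold enrichment of that peak was 9.47 in uncut hearts and 8.52 at 9 dpa. The median H3K9me3 peak of these lists had 9.1 and 6.72. The only other H3K9ac site near a promoter of the 8 genes that was listed at 1 time, besides that of tpm4a, lay 4.7 kb upstream of cmlc1, with 45 tags in uncut hearts.

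The other genes of the sarcomere moved in both directions at 6 dpa. Of 115 further names in the lists of thick filament, thin filament and Z-disc, titin and M-band genes, 31 were in the peak lists, and 16, 15 and 19 had an H3K9ac promoter peak in uncut, 6 dpa and 9 dpa hearts. Of the 12 with a peak at both times, 2 were lower by 1.5-fold or more at 6 dpa than in uncut hearts, acta1a and pdlim5b, against 7.33% of all genes, and 1 was higher, tmod4, against 3.42%. Their median was 0.07 in tags, 0.02 per kb and -0.12 in 10 kb reads. Per kb none of the 12 passed 1.5-fold, against 2.8% of all genes lower and 1.31% higher. In 10 kb reads none did either, against 0.822% and 0.368%. Per kb and in 10 kb reads, tmod4 was at 0.17 (SE 0.25) and -0.19 (SE 0.14). By the same measures acta1a was at -0.50 (SE 0.33) and -0.46 (SE 0.17), and pdlim5b at -0.18 (SE 0.21) and -0.27 (SE 0.15). In 10 kb reads acta1a, ldb3a (-0.41, SE 0.15) and trim63 (-0.36, SE 0.15) were lower beyond counting error, against 11.6% of all genes. Higher beyond it were bag3 (0.39, SE 0.09), tpm3 (0.35, SE 0.10) and tpm1 (0.33, SE 0.15), against 15.3%. Among thick filament genes unc45b, a chaperone of myosin, had 45 tags in uncut, no peak in 6 dpa and 54 tags in 9 dpa hearts. Among thin filament genes the 4 with most tags in uncut hearts parted: the tropomyosin genes tpm3 (299 tags in uncut, 381 in 6 dpa and 372 in 9 dpa hearts) and tpm1 (94, 135 and 121) were highest at 6 dpa. The actin-binding gene nexn had 78 tags, no peak and 82 tags at these times, and the actin gene acta1a had 53, 30 and 62. Relative to the median gene, the log2 change at 6 dpa against uncut was 0.24 (SE 0.11) for tpm3, 0.41 (SE 0.19) for tpm1 and -0.94 (SE 0.33) for acta1a. Among Z-disc genes the 4 with most tags were bag3, a co-chaperone (379, 501 and 422), and the actin capping protein genes capza1a (313, 365 and 324), capza1b (131, 174 and 158) and capzb (123, 137 and 137), all highest or equal highest at 6 dpa in tags that are not scaled. Relative to the median gene, bag3 was at 0.29 (SE 0.10) at 6 dpa against uncut. Within counting error of that gene were capza1b (0.30, SE 0.17), capza1a (0.11, SE 0.11) and capzb (0.04, SE 0.18). The other 4 of this group with a peak at both times had log2 changes below 0 at 6 dpa against uncut: pdlim5b at -0.74 (SE 0.21), trim63 at -0.46 (SE 0.20), ldb3a at -0.22 (SE 0.25) and desma at -0.16 (SE 0.27). Capping proteins and tpm3 serve actin in most cell types, not in muscle alone.

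**Figure D5:**
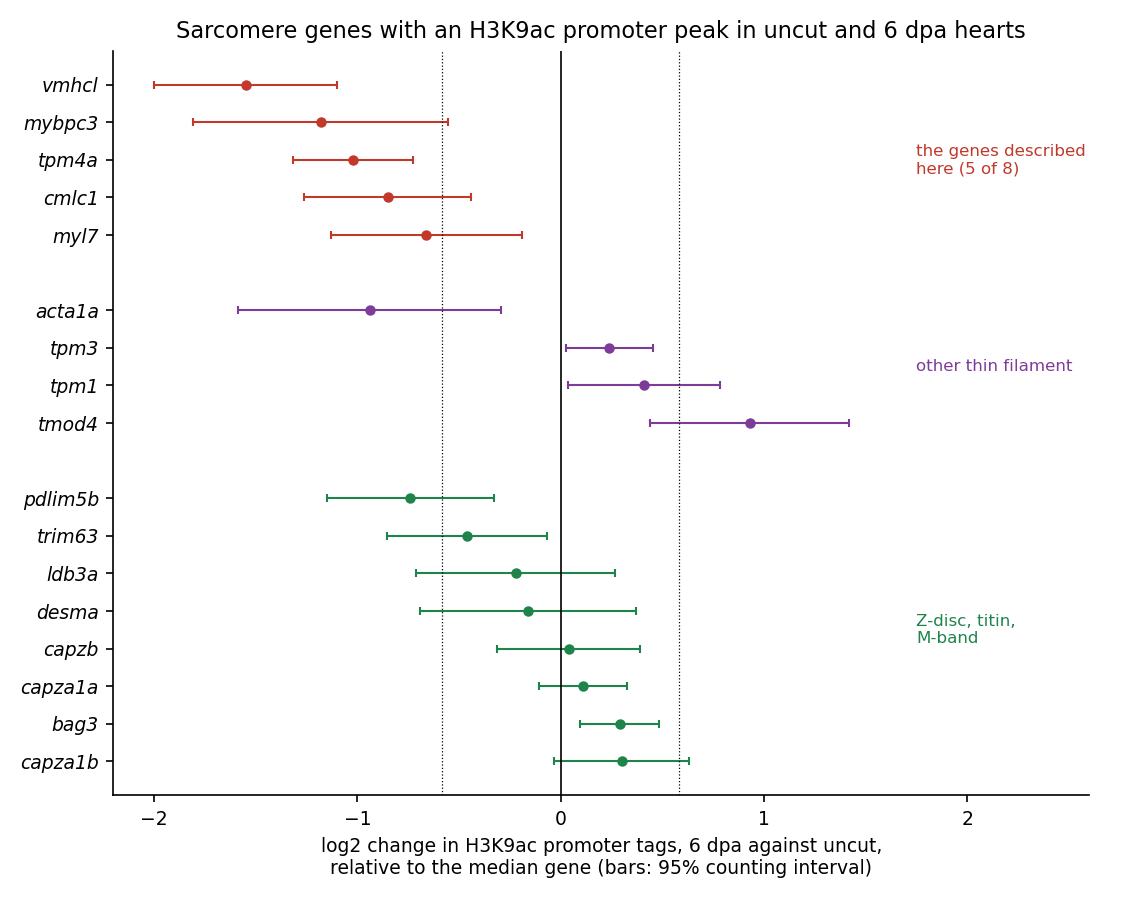
Log2 change in H3K9ac promoter tags at 6 dpa against uncut relative to the median gene (x axis), with 95% counting intervals, for sarcomere genes with a peak at both times. The 5 genes described here lie at -0.66 and below, while the 4 other thin filament genes run from -0.94 (acta1a) to 0.93 (tmod4) and the 8 Z-disc, titin and M-band genes from -0.74 (pdlim5b) to 0.30 (capza1b).

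A missing peak at 6 dpa recurred among these other genes. Of the 16 with a peak in uncut hearts, 4 had none at 6 dpa (unc45b, nexn, csrp3 and ldb3b), and all 4 had one again at 9 dpa, with 54, 82, 104 and 45 tags. Over all genes 2.27% of those with a peak in uncut hearts had none at 6 dpa, and 1.47% had none at 6 dpa and one at 9 dpa. In uncut hearts these 4 genes held 45, 78, 76 and 50 tags. Among the 1118 genes with at most 67 tags in uncut hearts, as unc45b and ldb3b had, the shares were 11.2% and 6.71%. The muscle LIM protein gene csrp3 and ldb3b, of the Z-disc, were named here after their values were seen, as were tmod4, pdlim5b, trim63, ldb3a and desma. New at 6 dpa against uncut, of the 31 other genes in the lists, were fhl1a, smyd1b and tnni3k, where 5.95% of all genes had such a gain. At 9 dpa against uncut, 16 of the other genes could be compared, with a median of -0.06. Lower by 1.5-fold in tags were 2 of them, pdlim5b (-0.83) and desma (-0.70), against 2.8% of all genes, and 1 was higher, tmod4 (1.05), against 3.14%. Per kb none of the 16 passed 1.5-fold, against 0.516% of all genes lower and 0.357% higher. In 10 kb reads none did either, against 0.0369% and 0.0246%. By these measures pdlim5b was at 0.28 and -0.02, desma at -0.26 and -0.05, and tmod4 at 0.16 and 0.06.

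Markers of the cells that make up a heart also differed between the libraries. The regulators of heart muscle identity summed to 1678 tags in uncut, 1133 in 6 dpa and 2131 in 9 dpa hearts, and at 6 dpa against uncut the 7 with a peak at both times had a median of -0.79, with mef2ca unlisted at 6 dpa and gata5 (-0.02) and mef2aa (-0.11) within counting error of the median gene. Per kb their median was -0.29. Endothelial and endocardial genes had a median of -0.88 in 5 genes. Of 15 names in that group 11 were in the lists, with peaks at 6, 8 and 9 of them in time order, which summed to 594, 644 and 935 tags. Of this group aplnrb, fli1b and tek had peaks at 6 dpa and none in uncut hearts, and fli1a had one in uncut hearts and none at 6 dpa. Of 13 erythrocyte and thrombocyte names 11 were in the lists, with peaks at 8, 9 and 9 of them, which summed to 1671, 2223 and 2850 tags. These sums are not scaled, and the genes with a peak differed between times. Against uncut, the median of this group was 0.28 in 8 genes at 6 dpa and 0.30 in 7 genes at 9 dpa. Of 17 fibroblast and smooth muscle names 8 were in the lists, with peaks at 3, 8 and 6 of them in time order. Their tags summed to 242, 560 and 447. The 3 of this group that could be compared at 6 dpa against uncut had a median of 0.02. Of 10 leukocyte names 3 were in the lists, with peaks at 1, 3 and 1 of them, which summed to 98, 103 and 108 tags. Names that the lists lack are left out of these counts. Among all genes in the lists, 5.95% gained a peak between the uncut and 6 dpa libraries. The 1 leukocyte gene with a peak at both times, cd74a, had 42 tags at 6 dpa and 98 in uncut hearts, a log2 change of -1.34 (SE 0.27), and -0.73 per kb. The single markers with values in this paragraph were named after their values were seen. The part of cell makeup in the values of the sarcomere genes was not tested.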

How the data were processed

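The submitters' processing notes name the build danRer10 and the tools MACS 1.4.2, Bowtie2 2.2.5 and DiffBind 1.16.3; settings, the control and read totals are not given in the sources used here. The authors deposited 1 list of annotated peaks for each mark and time. Per the file headers, a peak comes with its tag count, not normalized, a score of 10 times the negative log10 of its p, and a fold enrichment, the authors' ratio to background. Score and fold served only to describe or filter peaks within a list, and score and tags together gave each peak's local read density under a Poisson model. A library's background is the commonest density among its peaks.

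Each peak was counted once per gene. For each log2 change relative to the median gene, the median over the 8009 genes marked by H3K9ac at all times was subtracted. In tags it was 0.11 at 6 dpa against uncut, 0.22 at 9 dpa against uncut and 0.10 at 9 dpa against 6 dpa. In the same order it was 0.07, 0.14 and 0.08 in tags per kb and -0.18, 0.10 and 0.26 in 10 kb reads. Standard errors and 95% intervals (Poisson) cover counting error only. With 1 library per group every difference compares libraries. A change was called at 1.5-fold. All 8 genes were named, and of other genes up to 4 a group with most tags in uncut hearts, apart from those said to be named after their values were seen and those named for a missing peak or a called change. All 8 gene IDs were matched in the NCBI table of the GRCz12tu assembly, used for names only. The members and gene lists were chosen with earlier results of these data known. The change script was tested on simulated data. Python 3.11.15, pandas 2.3.3 and scipy 1.17.1 were used. Alternatives were windows of 1 and 5 kb, other scalings and widths, stricter scores and lists of equal length, with measures added after seeing the data.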

Additional observations from a re-analysis of the deposited data

Results flagged for a closer look

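Tags at the mybpc3 promoter moved in opposite directions at the later times: the log2 change relative to the median gene was -1.18 at 6 dpa against uncut and 0.50 at 9 dpa against uncut. In tags per kb the values were -0.42 (SE 0.32) and 0.00 (SE 0.23), both within counting error of 0. In 10 kb reads, where the uncut value is off a step, they were -0.45 (SE 0.15) and 0.02 (SE 0.13). The score of the 6 dpa peak, 50.76, lay just above the lowest of its list. The difference between the changes at 6 dpa and at 9 dpa was not tested, since each rests on 1 library and both use the same uncut library.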

How the results depend on the processing

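No paired analysis was possible because each mark and time had 1 library. For the median log2 change at 6 dpa against uncut, -1.02 in tags, the windows, the scaling to all tags in peaks, the single strongest peak and the stricter score gave -1.19 to -0.77. It was -0.54 per kb, -0.52 in tags scaled to background density, -0.37 with all peaks within 20 kb and the gene body, and, in measures added after seeing the data, -0.38 in 10 kb reads, -0.18 in those scaled to background and -0.09 in tags per kb scaled to background. The count of genes lower by 1.5-fold, 5 of 5, was 1, 2, 3 of 7, 1, 1 and 0 in these same settings, where 2.8%, 1.08%, 6.59%, 0.822%, 0.0491% and 0.135% of all genes were as low. It was 2 of 2 with peaks of score 100 or more, against 5.66%. At 9 dpa against uncut the count of 2 was 0 per kb (0.516% of all genes), 0 in tags scaled to background (1.09%), 1 of 3 at score 100 (2.4%), 1 of 8 with all peaks (3.62%) and 0 in each of the 3 added measures (0.0246% to 0.16%), and the median kept its sign throughout. At 9 dpa against 6 dpa the median of 0.57 was 0.15 per kb and 0.08 in 10 kb reads. It was -0.07 in 10 kb reads scaled to background and -0.19 in tags per kb scaled to background. Single genes reversed in 8 instances: at 6 dpa against uncut mybpc3 (0.04) and tpm4a (0.26), and at 9 dpa against uncut tpm4a (0.08), in tags per kb scaled to background. At 9 dpa against 6 dpa tpm4a was at -0.19 and cmlc1 at -0.24 in that measure, at -0.22 and -0.07 in scaled 10 kb reads, and tpm4a at -0.07 in unscaled ones. The 10 kb values of tpm4a there set its downstream promoter at 6 dpa beside its upstream one at 9 dpa. Scaling to background shifts all genes alike. The cause of the other differences was not tested.

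With peaks of score 100 or more, 3 of the 8 genes had an H3K9ac promoter peak in uncut, 3 in 6 dpa and 6 in 9 dpa hearts, against 70.4%, 76% and 74.8% of all genes. In lists of equal length mybpc3 had no peak at 6 dpa, which left 4 genes. Counting all peaks within 20 kb and the gene body gave H3K9me3 at 2 genes in uncut, 3 in 6 dpa and 2 in 9 dpa hearts, against 18.3%, 25.8% and 18.2% of all genes. At the background density of the H3K9ac libraries, a peak as wide as those of the troponin genes needs at least 30 to 40 tags to be listed. Where the local density is above background it needs more.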
